A study of Arabidopsis halleri with 24 samples.

Results

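The cytochrome P450 genes named on the array were represented by 23 of the 22746 probe sets that remained once 64 control probe sets were left out. A probe set was taken when the platform's probe table gave it 1 gene symbol of the P450 form, which is CYP, a family number, a subfamily letter and a gene number. Subfamily CYP71B supplied 19 of the 23, and the other 4 were CYP51G2, CYP78A9, CYP79A2 and CYP84A4. A probe set that the table gives to both CYP71B19 and CYP71B20 was left out, and so were CYP71 and CYP59, which in this table are cyclophilins and not P450s. The probe table listed a single symbol for 13513 probe sets, several for 503 and none for 8794, so P450 genes outside these 23 were not analysed here.

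Plant cytochrome P450s are haem enzymes, mostly anchored in the endoplasmic reticulum, that take electrons from a P450 reductase and insert 1 oxygen atom into a small molecule. They act in the synthesis of sterols, hormones, phenylpropanoids, glucosinolates and indole defence compounds, and many are expressed in a particular organ or after stress. The CYP71B subfamily is large in Arabidopsis thaliana, many of its genes lie beside each other in tandem arrays, and its best known member is the camalexin enzyme PAD3. Among the genes measured here, CYP71B6 converts indole acetonitrile to indole carboxylic acid in A. thaliana. CYP79A2 makes phenylacetaldoxime, the precursor of benzylglucosinolate. CYP84A4 acts in arabidopyrone synthesis and is a relative of ferulate hydroxylase. CYP78A9 promotes the growth of fruits and seeds, CYP51G2 belongs to the family of sterol demethylases, and the P of CYP71B30P marks a pseudogene. The substrates of the other CYP71B enzymes are not stated here.

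The series measured transcripts in plants recorded as Arabidopsis halleri, a relative of A. thaliana known for accumulating zinc. The 24 arrays formed 8 groups of 3. Roots, taken as whole root systems, came from an accumulating bulk on high zinc, the accumulating bulk on control medium, a non-accumulating bulk on high zinc and the non-accumulating bulk on control medium, and rosette leaves came from the same 4 settings. High zinc was 25 µM by the treatment labels, no zinc level was given for the control, and all plants grew in a growth room on a full mineral medium. A bulk is a pool of plants. From general knowledge of the study, and not from the titles, the pools were drawn from the offspring of A. halleri crossed with the non-accumulator A. petraea. The comparisons ask which transcripts differ between organs, with the accumulation trait and with the medium.

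Whether the 3 replicates of a group were separate plants is not stated in the labels, and the p-values therefore speak only of array-to-array spread. Arrays of 1 group correlated at 0.935 to 0.961 in roots and 0.868 to 0.963 in leaves. The organ labels were checked with marker genes: RCA, PRK, SBPASE, LHCB4.1 and LHCB4.2, all photosynthesis genes, differed between roots and leaves by log2 values of -6.76 to -4.16, and the root genes PYK10, EXPA18 and EXPA7 by 0.80 to 4.74. Replicate 1 of the non-accumulating control roots carries the source name halleri in place of a bulk. It was kept in the group its title gives, and leaving it out left the numbers of P450s called in every comparison it enters as they were. The leaf arrays numbered 3 lay apart from the other leaf arrays for several P450s, so leaf results that rest on them are also given without them.

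Signals were those of a short-oligonucleotide array in intensity units. The probes were designed on A. thaliana, and sequence differences can lower a signal, so values were compared within a probe set and never between probe sets. Closely similar CYP71B copies may also share probes, so a signal may not come from the named copy alone, and neither effect was tested. Tests used log2(signal + 16). Testing was limited to probe sets bright enough in at least 1 group: that group's mean had to exceed the overall median signal, which stood at 54.8 for all arrays, 56.3 for root arrays and 53.3 for leaf arrays.

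Most P450 probe sets were dim. The highest group mean stayed under the filter for 16 of the 23, and 7 were tested over all arrays: CYP71B6, CYP71B22, CYP71B23, CYP71B26, CYP71B28, CYP71B35 and CYP78A9. In roots 6 of the 23 were tested, since CYP71B26 was too dim there, and in leaves 6, since CYP78A9 was too dim there. CYP71B16, CYP71B21, CYP71B31 and CYP79A2 stayed under a signal of 20 on every array. For CYP79A2, the aldoxime enzyme, the 12 root arrays ran from 2.28 to 5.70 with a median of 4.16 and the 12 leaf arrays from 1.82 to 5.72 with a median of 3.65. The organs overlapped almost wholly, at signals far under the filter.

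The plot of P450 signals in roots and leaves shows every array for all 23 probe sets. CYP71B22 was the gene whose organs stood farthest apart, with a gap on the log axis between its highest root array and its lowest leaf array. CYP71B5 also had no root array above any leaf array, but on signals below the filter. The root and leaf arrays of the other 21 probe sets overlapped.

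**Figure D1:**
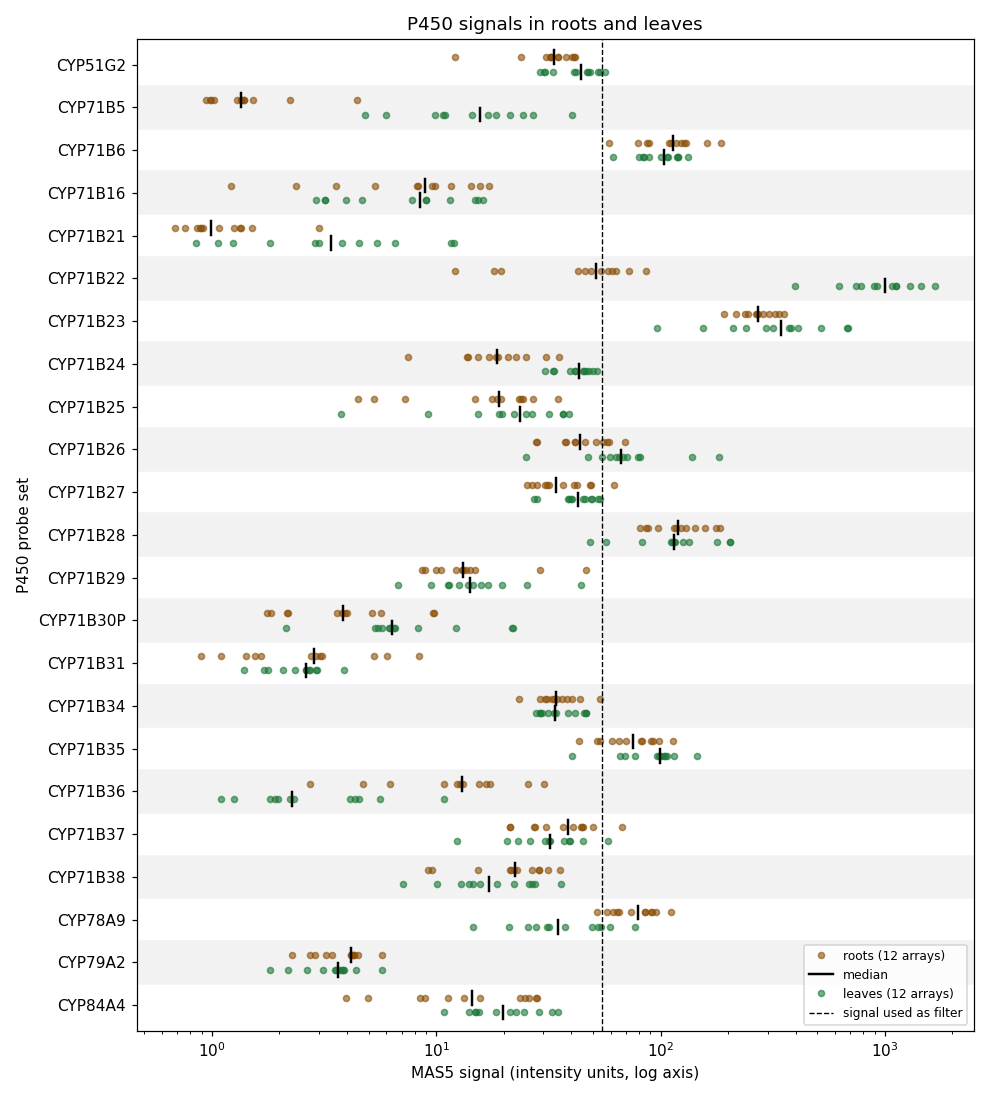
MAS5 signal (log axis) of the 23 P450 probe sets on 12 root arrays (brown) and 12 leaf arrays (green), with a black bar at the median of each organ and a dashed line at the filter signal of 54.8. Root and leaf arrays are fully separated for CYP71B22 and CYP71B5 and overlap for the other 21.

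Between roots and leaves, CYP71B22 was far lower in roots, CYP71B26 was moderately lower in roots, and CYP78A9 was higher in roots. These were 3 of 7 tested P450s called by limma at an adjusted p under 0.05, 1 higher and 2 lower. Most of the array differed between these organs in the same fit, with 67.9% of 14403 probe sets called, 40.4% higher and 27.4% lower in roots. In limma 70.4% of the 14403 had an unadjusted p under 0.05, against the same 3 of 7 P450s. With only 7 P450s tested, these counts are too small to set the P450s apart from the whole array. The median difference of the 7 was -0.22 on the log2 scale, against 0.13 for all probe sets tested.

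CYP71B22 gave root signals of 42.7, 72.2 and 12.1 in the accumulating bulk on high zinc, 18.1, 60.9 and 19.5 in that bulk on control medium, 86.3, 63.5 and 46.0 in the non-accumulating bulk on high zinc, and 54.0, 48.8 and 58.4 in that bulk on control medium. Its leaf signals in the same order of settings were 1119, 782 and 398, then 746, 926 and 1444, then 1078, 1291 and 624.5, then 1118, 899 and 1681. Every leaf array was thus several times brighter than every root array, whatever the bulk or medium. The root mean was 48.5 (SD 22.6, n = 12) and the leaf mean 1009 (SD 358, n = 12), so the mean signal in leaves was 20.8-fold that in roots.

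In the limma fit the root minus leaf difference of CYP71B22 was -3.997 (SE 0.21, adjusted p = 3.74e-13), lower in all 12 root arrays. CYP71B22 was the only P450 both called and past 2-fold, and 11.8% of all probe sets tested were so in its direction and 13.3% in the other. The ratio of leaf to root means was 18.1 in the accumulating bulk on high zinc, 31.6 in that bulk on control medium, 15.3 in the non-accumulating bulk on high zinc and 22.9 in that bulk on control medium. The root mean lay near the filter signal, so the size depends on the pseudocount: the difference was -4.45 with a pseudocount of 1 and -3.20 with 64. In whole organs, fewer cells of a type that express a gene and less RNA per cell cannot be told apart, which holds for all organ differences given here.

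CYP78A9, of the growth-promoting CYP78A subfamily, was the only tested P450 called higher in roots. Its root signals lay between 51.9 and 111, with a median of 79.6, and its leaf signals between 14.5 and 76.6, with a median of 34.7. The 2 organs overlapped through a few leaf arrays, chiefly replicate 2 of the non-accumulating control leaves at 76.6. The means were 77.8 (SD 18.1, n = 12) in roots and 40.3 (SD 18.3, n = 12) in leaves, and the difference was 0.78 on the log2 scale (SE 0.16, adjusted p = 0.000263 in limma). Root means were above leaf means in each setting, by 1.74-fold and 1.92-fold in the accumulating bulk on high zinc and control medium, and by 1.77-fold and 2.31-fold in the non-accumulating bulk on high zinc and control medium. The leaf signals were mostly under the filter, and the log2 difference was 1.04 with a pseudocount of 1 and 0.45 with 64.

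CYP71B26 was lower in roots, with a wide spread in leaves. Root signals ran from 28.0 to 69.1 with a median of 43.9, and leaf signals from 25.2 to 183 with a median of 66.7. Most root arrays lay among the lower leaf arrays, and the upper end of the leaf range came from replicates 3 and 1 of the non-accumulating bulk on high zinc, at 183 and 138. The log2 difference was -0.51 (SE 0.15, adjusted p = 0.00419 in limma). The ratio of leaf to root means was 3.55 in the non-accumulating bulk on high zinc, and 1.14, 1.36 and 1.27 in the accumulating bulk on high zinc, that bulk on control medium and the non-accumulating bulk on control medium.

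The remaining tested CYP71B genes gave no call between organs in the main fit. CYP71B6, the indole enzyme, had root signals of 59.1 to 187 and leaf signals of 61.5 to 132, with a log2 difference of 0.15 (95% interval -0.07 to 0.36). CYP71B28 lay at 81.4 to 183 in roots and at 48.7 to 204 in leaves, and its difference was 0.06 (95% interval -0.27 to 0.40). CYP71B35 lay at 43.3 to 113 in roots and at 40.2 to 145 in leaves, with a difference of -0.25 (95% interval -0.55 to 0.04). In an alternative limma fit with array weights, CYP71B35 was called lower in roots (-0.28, adjusted p = 0.0467), so its status depended on the weighting. CYP71B23 was the most variable of the 4 in leaves: its root arrays spanned 192 to 356 and its leaf arrays 96.4 to 683, and its difference was -0.22 (95% interval -0.70 to 0.27). These intervals do not show that any of the 4 was equal in both organs.

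With no filter on low signals, all 23 P450s could be tested, and 8 were called between organs, 2 higher and 6 lower in roots. The background in that fit was 51.8% of 22746 probe sets called, 30.8% higher and 21.1% lower. The 5 added calls were CYP71B5, CYP71B24, CYP71B21 and CYP71B30P, all lower in roots, and CYP71B36, higher in roots. All 5 rest on dim signals, where the pseudocount compresses the difference.

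CYP71B5 had root signals of 0.936 to 4.43 with a median of 1.35, and leaf signals of 4.83 to 40.2 with a median of 15.7. No root array reached the lowest leaf array, and the log2 difference was -0.86 (adjusted p = 3.12e-06, limma with no filter). Such separation in either direction was found for 2 of the 23 P450s and for 13.2% of all probe sets. CYP71B24 lay at 7.52 to 35.3 in roots and at 30.6 to 52.1 in leaves, with a median of 18.7 in roots and 43.4 in leaves. Only the top of its root range touched the leaf range, and the difference was -0.72 (adjusted p = 1.25e-05).

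CYP71B36 went the other way, with root signals of 2.74 to 30.1 and a median of 13.0, and leaf signals of 1.10 to 10.9 and a median of 2.27. Its difference was 0.59 (adjusted p = 3.79e-05), the highest among the 19 CYP71B probe sets, and CYP71B22 had the lowest. CYP71B21 and the pseudogene CYP71B30P differed by -0.24 (adjusted p = 0.0172) and -0.26 (adjusted p = 0.0425), with medians of 0.993 and 3.86 in roots and 3.41 and 6.35 in leaves. Of the 19 CYP71B probe sets, 1 was thus called higher in roots and 6 lower in the fit with no filter, 5 of these 7 on signals under the filter.

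**Figure D2:**
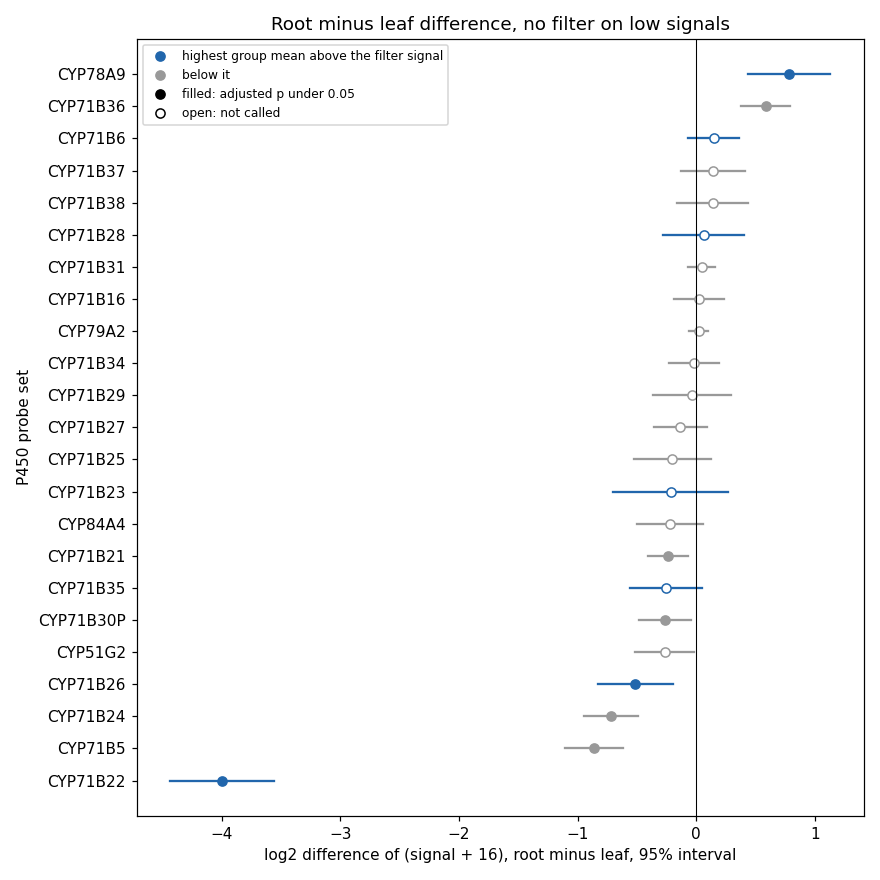
Root minus leaf log2 difference of (signal + 16) for the 23 P450 probe sets, fitted with no filter, with 95% intervals. Blue marks the 7 probe sets above the filter signal and grey the 16 below it, and filled points are the 8 with an adjusted p under 0.05, of which CYP71B22 lies far to the left of the rest and CYP78A9 farthest to the right.

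The other 3 families with a single probe set lay under the filter and were not called between organs with no filter. CYP51G2, of the sterol demethylase family, ran between 12.1 and 41.6 in roots (median 33.6) and between 29.0 and 56.7 in leaves (median 44.3). CYP84A4, the arabidopyrone enzyme, ran between 3.95 and 28.2 in roots (median 14.5) and between 10.8 and 34.8 in leaves (median 19.9). Both had higher medians in leaves with overlapping arrays.

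Whether the organ difference depended on the bulk or the zinc supply was tested as an interaction over all 24 arrays. The organ by bulk interaction called 0 of 7 P450s and 0% of the 14403 probe sets in limma. An unadjusted p under 0.05 was found for 2 of the 7 P450s and for 372 of the 14403 probe sets. CYP71B6 had the smallest p of the members: its root minus leaf difference was lower in the accumulating bulk than in the non-accumulating bulk (log2 -0.87, SE 0.21, unadjusted p 0.000397, adjusted p = 0.959 in limma). In alternative limma fits its adjusted p was 0.0783 with array weights and 0.345 with a block for the replicate number, so it was not called there either. Its root mean was 0.694-fold its leaf mean in the accumulating bulk on high zinc, and 1.64-fold in the non-accumulating bulk on high zinc. On control medium the ratio was 0.936 in the accumulating bulk and 1.5 in the non-accumulating bulk. CYP71B26 followed with 0.61 (unadjusted p = 0.049, limma fit), and CYP71B35 (0.34), CYP71B22 (-0.27) and CYP78A9 (-0.20) were given by rule as the next smallest p.

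The organ by zinc interaction called 0 of 7 P450s in limma, against 0.00694% of all probe sets. No P450 had an unadjusted p under 0.05, against 933 of the 14403 probe sets. The members with the smallest p were CYP71B26 (-0.50), CYP71B22 (0.61), CYP71B35 (-0.32), CYP71B28 (-0.35) and CYP78A9 (-0.25), each a log2 difference between the organ differences on high zinc and on control medium. None of these passed the test.

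Between the bulks, no P450 was called in any comparison. The nearest was CYP71B6 in roots. Its root signals were 109, 88.6 and 59.1 in the accumulating bulk on high zinc, against 187, 161 and 127 in the non-accumulating bulk on high zinc. On control medium they were 87.3, 111 and 79.2 in the accumulating bulk and 131, 124 and 117 in the non-accumulating bulk. All 6 accumulating root arrays lay below all 6 non-accumulating root arrays, a separation in either direction that 1 of the 23 P450s and 0.334% of all probe sets had.

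Over both media the log2 difference of CYP71B6 in roots, accumulating minus non-accumulating, was -0.58 (SE 0.14, 95% interval -0.89 to -0.28). Its unadjusted p was 0.00112 and its adjusted p 0.449 in limma over 12489 probe sets, so it did not pass the correction. Without the array with the source name halleri it was -0.57 (adjusted p = 0.559). It was -0.79 on high zinc (adjusted p = 0.569) and -0.37 on control medium (adjusted p = 0.957), and the difference of these 2 values, the bulk by zinc interaction, was -0.42 (SE 0.28). In leaves the same gene pointed the other way, with 132, 118 and 120 in the accumulating bulk on high zinc against 120, 61.5 and 108 in the non-accumulating bulk on high zinc. On control medium its leaf signals were 107, 89.1 and 100 in the accumulating bulk and 79.8, 83.2 and 84.4 in the non-accumulating bulk. The leaf difference over both media was 0.28 (95% interval -0.03 to 0.60), with no call.

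For roots over both media, limma called 0 of 6 P450s, with 1 at an unadjusted p under 0.05, while 0% of 12489 probe sets were called and 6.9% had an unadjusted p under 0.05. After CYP71B6, the members with the smallest p were CYP71B22 (-0.61), CYP71B28 (0.36), CYP71B23 (0.26) and CYP71B35 (-0.13). The 95% interval of CYP71B22 ran from -1.22 to 0.00038 and that of CYP71B28 from -0.00064 to 0.73, so both touched 0. The low root signals of CYP71B22 in the accumulating bulk came from 3 arrays at 12.1 to 19.5, and the other 3 of that bulk lay at 42.7 to 72.2, overlapping the range of 46.0 to 86.3 in the non-accumulating bulk.

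Within each medium the roots gave 0 of 6 called as well. On high zinc 1 of 6 had an unadjusted p under 0.05 and 0% of all probe sets were called. The smallest p belonged to CYP71B6, followed by CYP71B28 (0.43), CYP71B22 (-0.60), CYP78A9 (0.25) and CYP71B35 (-0.22). On control medium 1 of 6 had an unadjusted p under 0.05, against 617 of 12489 probe sets, again with 0% of all probe sets called. There CYP71B23 came first (0.40), with accumulating root signals of 266, 325 and 287 against 218, 246 and 192 in the non-accumulating bulk. These arrays did not overlap, and the adjusted p was 0.957 in limma. CYP71B6, CYP71B22 (-0.62), CYP71B28 (0.30) and CYP78A9 (-0.19) followed.

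Over all 23 P450s, the root arrays of the 2 bulks did not overlap for 4 on high zinc and for 3 on control medium, against 10.2% and 10.8% of all probe sets. On high zinc CYP71B26 was higher in every accumulating array and CYP71B6, CYP71B16 and CYP71B27 lower. On control medium CYP71B23 was higher in every accumulating array and CYP71B6 and CYP71B26 lower. CYP71B6 was the only member on the same side in both media. CYP71B16, CYP71B26 and CYP71B27 lay under the root filter.

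In leaves over both media, limma called 0 of 6 P450s between the bulks, with 2 at an unadjusted p under 0.05, against 0% of 12688 probe sets called and 4.3% at an unadjusted p under 0.05. The first was CYP71B26 at -0.61 (SE 0.25, unadjusted p = 0.0301, adjusted p = 0.999 in limma). Its leaf signals were 63.1, 55.0 and 70.6 in the accumulating bulk on high zinc, against 138, 59.2 and 183 in the non-accumulating bulk on high zinc. On control medium they were 25.2, 47.7 and 78.97 in the accumulating bulk and 65.5, 81.1 and 67.9 in the non-accumulating bulk. The bulks overlapped in both media, through replicate 2 of the non-accumulating bulk on high zinc and replicate 3 of the accumulating bulk on control medium.

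The second was CYP71B35 at -0.47 (SE 0.19, unadjusted p = 0.0306, adjusted p = 0.999 in limma). Its leaf signals were 107, 66.3 and 69.5 in the accumulating bulk on high zinc, against 145, 104 and 98.8 in the non-accumulating bulk on high zinc. On control medium they were 76.99, 40.2 and 104 in the accumulating bulk and 101, 115 and 96.6 in the non-accumulating bulk. In each medium 1 accumulating array reached into the range of the non-accumulating bulk. CYP71B28 (0.33) and CYP71B22 (-0.34) were the remaining genes named by p.

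Within each medium the leaves gave 0 of 6 called between the bulks, and 0% of all probe sets were called in limma. At an unadjusted p under 0.05 were 0 of 6 P450s in each medium. Of the 12688 probe sets, 404 on high zinc and 343 on control medium had such a p. On high zinc the differences were -0.75 for CYP71B26, 0.35 for CYP71B6, -0.45 for CYP71B35, 0.58 for CYP71B28 and -0.43 for CYP71B22. On control medium they were -0.48 for CYP71B35, -0.47 for CYP71B26, 0.22 for CYP71B6, -0.25 for CYP71B22 and 0.17 for CYP71B23. The leaf arrays of the bulks did not overlap for 3 of the 23 P450s on high zinc (CYP71B28 higher, CYP71B24 and CYP71B30P lower in the accumulating bulk) and for 3 on control medium (CYP71B6 higher, CYP71B36 and CYP71B37 lower). The shares of all probe sets were 7.64% and 8.8%. CYP71B24, CYP71B30P, CYP71B36 and CYP71B37 lay under the leaf filter.

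The plot by bulk and zinc shows the 7 tested P450s array by array. The step between roots and leaves was plain for CYP71B22 and visible for CYP78A9, and the bulk difference in CYP71B6 roots appears as 2 low and 2 high groups. The wide leaf spread of CYP71B23 came largely from the arrays numbered 3.

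**Figure D3:**
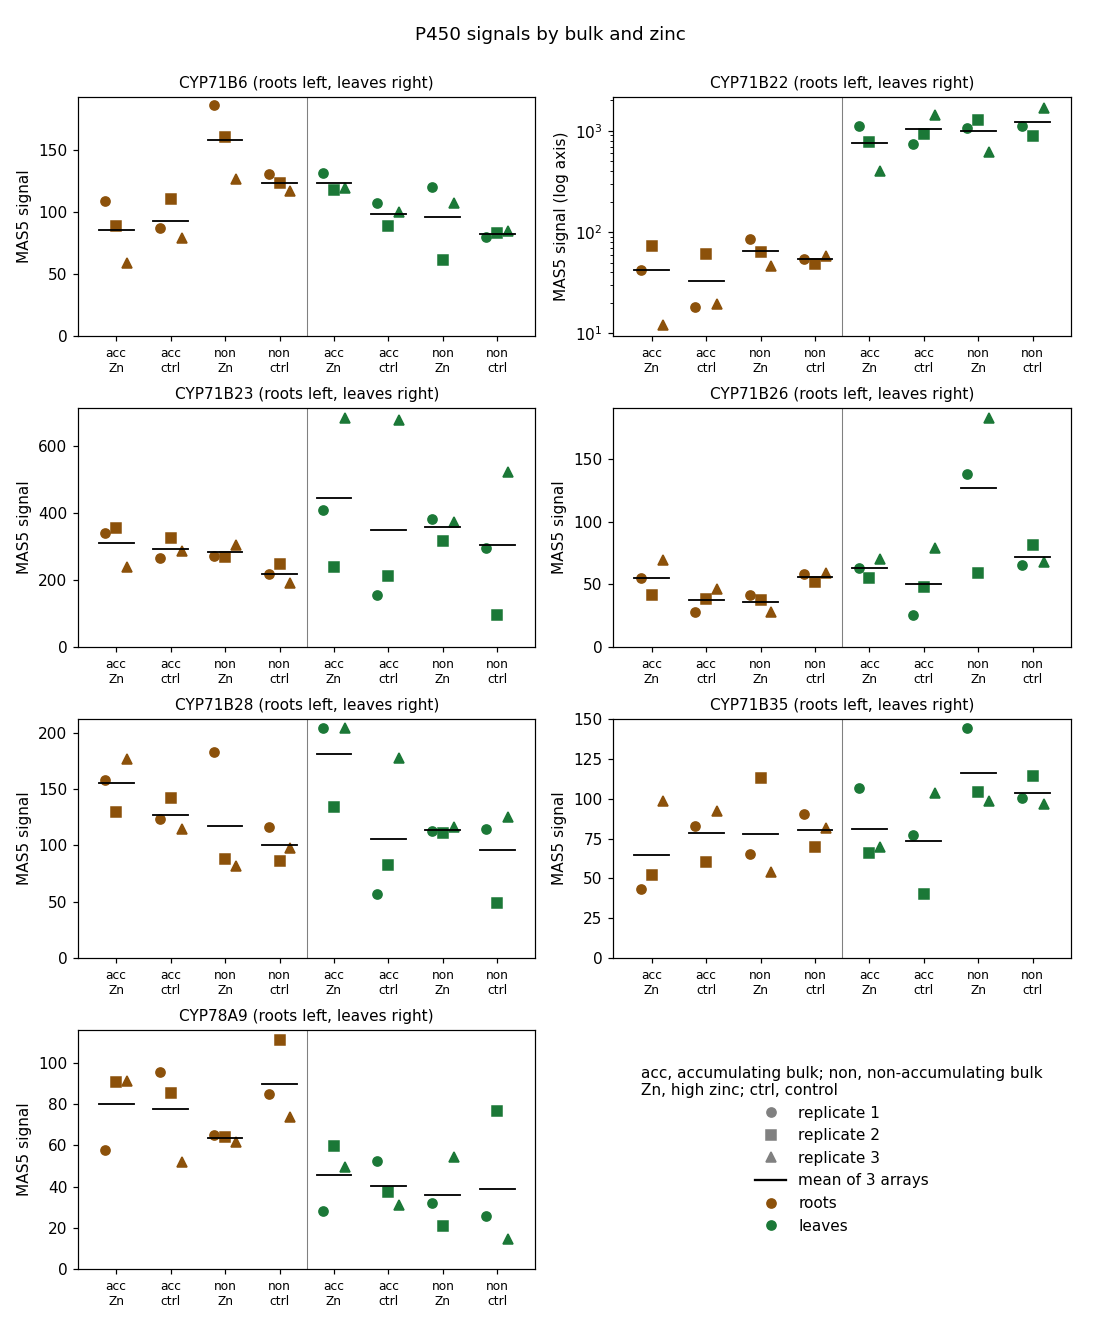
MAS5 signal of the 7 tested P450 probe sets on each array, by bulk (acc, accumulating; non, non-accumulating) and medium (Zn, high zinc; ctrl, control), with roots left and leaves right of the grey line, marker shapes for replicate numbers and a bar at each mean of 3 arrays. The axis of CYP71B22 is logarithmic and the others start at 0; the 6 accumulating root arrays of CYP71B6 lie at 59.1 to 111 and the 6 non-accumulating ones at 117 to 187.

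High zinc gave no call among the P450s in roots. Over both bulks limma called 0 of 6, none at an unadjusted p under 0.05, and 0% of 12489 probe sets were called, with 6.84% at an unadjusted p under 0.05. The smallest p belonged to CYP71B23 at 0.21 (95% interval -0.06 to 0.47), CYP78A9 at -0.18, CYP71B28 at 0.19, CYP71B35 at -0.18 and CYP71B22 at 0.20. The median of the 6 was 0.14. The widest interval was that of CYP71B22, from -0.41 to 0.81.

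In accumulating roots the differences named by p were 0.25 for CYP71B28, -0.28 for CYP71B35, -0.12 for CYP71B6, 0.21 for CYP71B22 and 0.07 for CYP71B23. In non-accumulating roots they were 0.35 for CYP71B23, -0.40 for CYP78A9, 0.30 for CYP71B6, 0.13 for CYP71B28 and 0.19 for CYP71B22. Neither bulk had a call or an unadjusted p under 0.05 among the 6, and 0% of all probe sets were called in limma in each. Of the 12489 probe sets, 361 in accumulating and 1018 in non-accumulating roots had an unadjusted p under 0.05. In non-accumulating roots CYP71B23 had 273, 269 and 305 on high zinc against 218, 246 and 192 on control medium, without overlap. CYP78A9 had 65.0, 63.9 and 61.5 on high zinc against 85.2, 111 and 73.9 on control medium, also without overlap. Such separation was seen for 6 of the 23 P450s in non-accumulating roots (CYP71B23 and CYP71B25 higher on zinc, CYP71B26, CYP71B37, CYP78A9 and CYP84A4 lower) and for CYP71B31 alone in accumulating roots, against 10.8% and 8.43% of all probe sets. All of these but CYP71B23 and CYP78A9 lay under the root filter.

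The bulk by zinc interaction in roots asks whether the zinc responses of the bulks differed. It called 0 of 6 P450s and 0% of all probe sets in limma. No P450 had an unadjusted p under 0.05, against 470 of 12489 probe sets. The values were -0.42 for CYP71B6, 0.44 for CYP78A9, -0.28 for CYP71B23, -0.19 for CYP71B35 and 0.13 for CYP71B28. CYP71B6 averaged 85.5 (SD 24.9) on high zinc against 92.5 (SD 16.5) on control medium in accumulating roots, and 158 (SD 29.8) against 124 (SD 6.85) in non-accumulating roots (n = 3 each). The zinc differences of the bulks had opposite signs, and their difference did not pass the test.

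In leaves, none of the 6 tested P450s was called for high zinc minus control over both bulks. The median difference of the 6 was 0.34, against 0.0004 for all probe sets tested. Limma called 0 of 6, none at an unadjusted p under 0.05, against 0.0315% of 12688 probe sets called (0.00788% higher, 0.0236% lower) and 9.38% at an unadjusted p under 0.05. The largest difference was that of CYP71B28, 0.54 (SE 0.26, 95% interval -0.02 to 1.10, adjusted p = 0.553). CYP71B26 (0.46), CYP71B6 (0.22), CYP71B22 (-0.40) and CYP71B23 (0.49) followed by p.

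CYP71B28 had leaf signals of 204, 134 and 204 on high zinc against 56.8, 82.9 and 178 on control medium in the accumulating bulk. In the non-accumulating bulk it had 113, 111 and 116 on high zinc against 114, 48.7 and 125 on control medium. Replicate 3 of the accumulating control leaves was the array that brought the media into overlap in that bulk. In the non-accumulating bulk only replicate 2 of the control leaves was low. The difference was 0.79 in the accumulating bulk (adjusted p = 0.864 in limma) and 0.29 in the non-accumulating bulk.

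The call for CYP71B28 depended on how the leaf arrays were weighted. With array weights, which reduce the influence of arrays that deviate from their group, it was 0.62 over both bulks (adjusted p = 0.0253) and 1.14 in the accumulating bulk (adjusted p = 0.0174). Under the same weights CYP71B26 gave 0.56 (adjusted p = 0.0486) and CYP71B35 gave 0.49 (adjusted p = 0.0443) over both bulks. These were 3 of 6 P450s over both bulks and 1 of 6 in the accumulating bulk, against 19.1% and 9.4% of the 12688 probe sets called with the same weights. Without the 4 leaf arrays numbered 3, CYP71B28 gave 0.79 (adjusted p = 0.0624) and no P450 was called. The share of all probe sets called without those arrays is not given here, so that count stands without a background.

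CYP71B22 in leaves also depended on those arrays. On high zinc its replicate 3 differed from the mean of replicates 1 and 2 by log2 values of -1.2 in the accumulating bulk and -0.9 in the non-accumulating bulk, whereas on control medium replicate 3 lay above that mean by 0.79 in the accumulating bulk and 0.74 in the non-accumulating bulk. With all arrays its zinc difference was -0.40 over both bulks (95% interval -1.04 to 0.23), and without the arrays numbered 3 it was 0.20. For CYP71B23 replicate 3 was higher than the mean of the other two by 1.08 and 1.82 in the accumulating bulk on high zinc and control medium, and by 0.10 and 1.52 in the non-accumulating bulk on high zinc and control medium. Without those arrays its zinc difference in leaves was 0.85 over both bulks (adjusted p = 0.113 in limma), 0.74 in the accumulating bulk and 0.96 in the non-accumulating bulk. Its bulk difference in leaves over both media was -0.04 without them and 0.18 with all arrays, and its root minus leaf difference 0.16 without them. None of these was called.

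Within the accumulating leaves limma called 0 of 6 for zinc and 0% of all probe sets. There 1 of 6 had an unadjusted p under 0.05, against 731 of 12688 probe sets. In the non-accumulating leaves 0 of 6 were called, against 0.00788% of all probe sets. No P450 had an unadjusted p under 0.05 there, against 590 of 12688 probe sets. In accumulating leaves the values after CYP71B28 were 0.28 for CYP71B6, -0.49 for CYP71B22, 0.32 for CYP71B26 and 0.50 for CYP71B23. In non-accumulating leaves they were 0.60 for CYP71B26, 0.48 for CYP71B23, 0.29 for CYP71B28, -0.31 for CYP71B22 and 0.15 for CYP71B6. Arrays on high zinc lay wholly above control for 3 of the 23 P450s in accumulating leaves, CYP71B6, CYP71B16 and CYP71B36, and wholly below for CYP71B36 alone in non-accumulating leaves, against 9.92% and 8.63% of all probe sets separated either way. CYP71B16 and CYP71B36 lay far under the leaf filter.

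The bulk by zinc interaction in leaves called 0 of 6 P450s and 0% of all probe sets in limma. No P450 had an unadjusted p under 0.05, against 197 of 12688 probe sets. CYP71B28 had the smallest p, with 0.51 (95% interval -0.61 to 1.62), and CYP71B26 (-0.27), CYP71B6 (0.13), CYP71B22 (-0.18) and CYP71B35 (0.03) followed. These intervals were wide, and no difference between the zinc responses of the bulks was detectable for a P450.

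**Figure D4:**
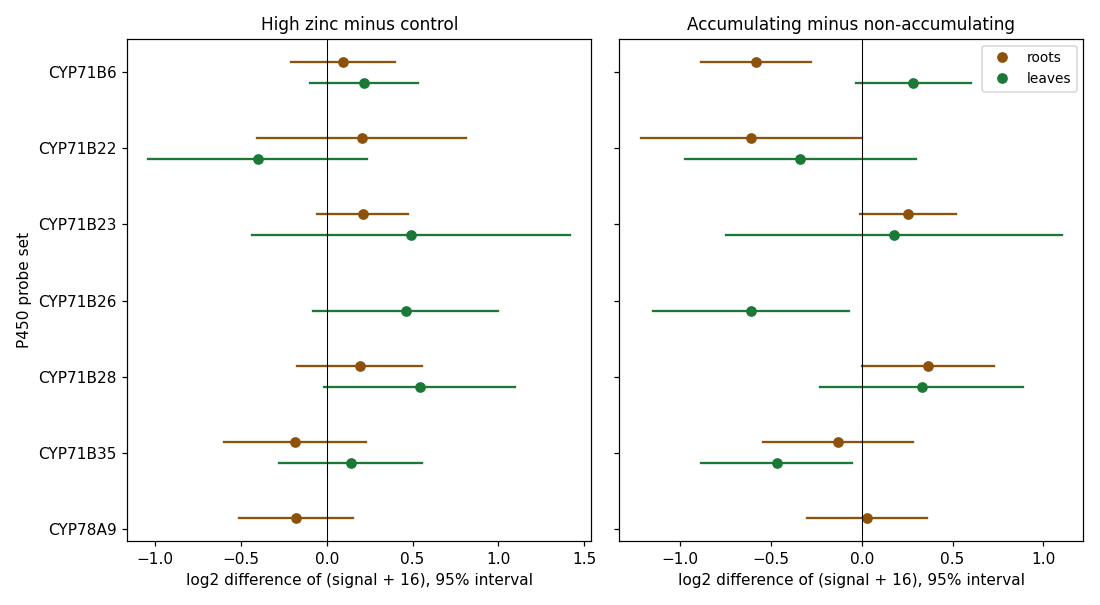
Log2 differences of (signal + 16) with 95% intervals for the tested P450s in roots (brown) and leaves (green), high zinc minus control over both bulks at left and accumulating minus non-accumulating over both media at right. CYP71B6 in roots (-0.58) has the bulk interval farthest from 0, CYP71B26 was tested in leaves only and CYP78A9 in roots only, and no difference had an adjusted p under 0.05.

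The patterns of the P450s over the 8 group means of log2(signal + 16) were set against that of CYP71B22, which the naming rule picked for its mean signal; this choice ranks no transcript level. As a description over 8 points that share the organ contrast, CYP71B24 (Pearson r = 0.963), CYP71B5 (0.947), CYP71B21 (0.944), CYP51G2 (0.803) and CYP71B30P (0.799) were the most like it. CYP78A9 (-0.961) and CYP71B36 (-0.813) were the most unlike. All but CYP51G2 of these were called between organs in the fit with no filter.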

How the data were processed

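RNA of 24 samples was hybridised to ATH1 arrays. The authors deposited 1 table of linear signals in intensity units for 22810 probe sets, made with MAS5 per the submitters' processing notes. No MAS5 version, scaling target or detection call is given in the sources used here. Mean signals with 2% trimmed at each end were 100 on every array, so the authors' scaling was kept. Array signals have no counting depth, and 3 arrays per group limit the precision. Groups came from the titles.

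For the tests, log2(signal + 16) was fitted in limma 3.58.1 under R 4.3.3 with group means, an eBayes trend and Benjamini-Hochberg adjustment over all probe sets tested, at 0.05. Organ comparisons used all 24 arrays, and zinc and bulk comparisons used the 12 arrays of an organ. The filter left 14403, 12489 and 12688 probe sets over all arrays, in roots and in leaves. Named were the P450s past the threshold or, where none passed, the 5 with the smallest unadjusted p, members of pathway lists, and the extremes of CYP71B between organs. The lists held 95 P450 genes, of which 4 had a probe set here: CYP71B6, CYP78A9, CYP79A2 and CYP84A4. Other genes named were chosen after their values were seen. Members and lists were chosen with earlier results of these data known. Alternatives were other pseudocounts and filters, 2 other normalizations, array weights, eBayes without the trend, a block for the replicate number, all arrays in 1 fit, omission of leaf arrays numbered 3, and omission of each single array. The procedure was tested on simulated data. No genome or sequence table was used.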

Additional observations from a re-analysis of the deposited data

Results flagged for a closer look

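For 3 P450s, 2 groups moved in opposite directions under the same contrast, with no overlap between the arrays compared in either group. Over the 8 pairs of contrasts examined this was 3 of 23 P450s, against 1.94% of all 22746 probe sets, and no test of that count was made. For CYP71B6, the accumulating minus non-accumulating difference on control medium was -0.37 in roots and 0.22 in leaves, a gap of -0.59. The gap over both media, the organ by bulk interaction, was -0.87 (unadjusted p 0.000397, adjusted p = 0.959 in limma). Its adjusted p in limma was 0.0783 with array weights and 0.345 with a replicate block. For CYP71B26, the bulk difference was 0.46 in high-zinc roots and -0.45 in control roots, which makes control minus high zinc -0.90. The root signals of CYP71B26 were 55.2, 41.7 and 69.1 in the accumulating bulk on high zinc against 41.6, 37.4 and 28.0 in the non-accumulating bulk on high zinc. On control medium they were 28.0, 38.0 and 46.0 in the accumulating bulk and 57.9, 51.6 and 58.9 in the non-accumulating bulk. Of these 12 signals, 3 lay above the root filter signal of 56.3. The bulk by zinc interaction, fitted with no filter, was 0.90 (SE 0.29, unadjusted p 0.00934, adjusted p = 0.9995 in limma). For CYP71B36, the high zinc minus control difference was 0.20 in accumulating leaves and -0.29 in non-accumulating leaves, a gap of 0.49 on signals of 1.10 to 10.9, far below the filter. With no filter that interaction had an unadjusted p of 0.0104 and an adjusted p = 0.9999 in limma. No reason for these opposite directions was tested.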

How the results depend on the processing

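The number of P450s called between roots and leaves was 3, and 8 with no filter and 1 of 4 tested with the stricter filter, against 77.4% of 8282 probe sets called under that filter. For zinc in leaves, array weights gave 3 called over both bulks and 1 in the accumulating bulk, against 0 without weights, while 2427 and 1193 of 12688 probe sets were called with them. The other 430 of 434 recomputed counts were unchanged or within 1.5 times. Outside root minus leaf the main count was 0 in every comparison, so a match there is only a 0 that stayed 0. Leaving out each array in turn gave 3 to 4 calls between organs and 0 for every other comparison. CYP71B22, CYP71B26 and CYP78A9 stayed called between organs under every alternative that tested them, with log2 ranges of -4.45 to -3.20, -0.63 to -0.32 and 0.45 to 1.04. The median root minus leaf difference of all probe sets was 0.13, against 0.08 after quantile normalization and 0.06 after median centring, and 59.6%, 55.6% and 54.7% of all calls were higher in roots. The deviations of same-numbered arrays correlated at a median of 0.07, 0.18 and 0.25 for numbers 1, 2 and 3 in roots (-0.08 for different numbers) and 0.08, 0.38 and 0.36 in leaves (-0.17 for different numbers). Every pair was over 0.1 for root number 3 and leaf numbers 2 and 3 but not for the others, so the main fit held no pairs. At the median, same-numbered arrays were still more alike than arrays of different numbers. 8 of 12 root arrays and 9 of 12 leaf arrays correlated best with their own number. With a replicate block, the SE of CYP71B23 between organs was 0.158 against 0.232 in the main fit, and that of CYP78A9 0.167 against 0.164. The P450 counts with the block stayed at 3 between organs and 0 elsewhere. The shares of all probe sets called with the block, or with an array left out, are not given here, so these P450 counts stand without a background.

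Of 2059 recomputed values of single P450s, 42 reversed sign, none of them a called value. With array weights, CYP71B22 for zinc in leaves was 0.043 over both bulks and 0.15 in the accumulating bulk, its bulk by zinc interaction in leaves 0.22, and CYP71B23 between bulks in control leaves -0.30. Without leaf arrays numbered 3, CYP71B22 for zinc was 0.20 over both bulks, 0.17 in the accumulating and 0.23 in the non-accumulating bulk, CYP71B26 in the leaf bulk by zinc interaction 0.28, and CYP78A9 in the organ by zinc interaction 0.14. CYP71B22 in the organ by bulk interaction was 0.010 with a pseudocount of 64. CYP71B35 in the leaf bulk by zinc interaction was -0.0028 with a pseudocount of 64, -0.021 after quantile normalization and -0.061 after median centring. With each array left out in turn, the values that crossed 0 ranged as follows. For zinc in accumulating roots they were -0.28 to 0.085 for CYP71B6, -0.16 to 0.67 for CYP71B22 and -0.037 to 0.24 for CYP71B23. For zinc in non-accumulating roots CYP71B28 ranged from -0.20 to 0.32. Between bulks, CYP78A9 ranged from -0.34 to 0.022 in control roots and CYP71B35 from -0.51 to 0.035 in high-zinc roots. In the root bulk by zinc interaction CYP71B35 ranged from -0.47 to 0.073 and CYP71B28 from -0.061 to 0.46. For zinc in non-accumulating leaves the ranges were -0.14 to 0.99 for CYP71B23, -0.070 to 0.49 for CYP71B28 and -0.0077 to 0.40 for CYP71B6. Between bulks in control leaves CYP71B23 ranged from -0.45 to 0.68. In the leaf bulk by zinc interaction the ranges were -0.68 to 0.023 for CYP71B26, -0.12 to 0.29 for CYP71B6, -0.51 to 0.22 for CYP71B22 and -0.27 to 0.27 for CYP71B35. The cause was not tested for any of these.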
